A study of Mus musculus with 6 samples.

Results

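The annexins described here are the 8 genes *Anxa1*, *Anxa2*, *Anxa3*, *Anxa4*, *Anxa5*, *Anxa6*, *Anxa7* and *Anxa11*, chosen by name from a table of 29097 mouse genes. Each name matched 1 row of the table, and all 8 genes were among the 10440 whose mean FPKM (fragments scaled to gene length and library size) reached 1 and which entered the test. Peripheral blood (PB) neutrophils, gated as CD45+CD11b+Ly6G+, were sorted from mice without a ligature (Ctrl) or from mice with ligature-induced periodontitis (LIP), in which silk was tied around the second molars on both sides of both jaws for 14 d. All mice were 8-week-old C57BL/6 males. Each group had 3 Smart-seq2 libraries, and each library was made from the pooled neutrophils of 5 mice, so that differences between single animals were not measured. The ligated group is named Lig in the sample labels. The comparison asks how 14 d of local oral inflammation is accompanied by a change in annexin transcripts of circulating neutrophils.

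Annexins are cytosolic proteins that bind, when calcium rises, to negatively charged phospholipids such as phosphatidylserine through a conserved core of annexin repeats, while a variable N-terminal tail carries the sites for partners and for cleavage. In neutrophils, they are known for their parts in granule fusion, membrane repair and the control of migration. Annexin A1, the most studied of them, is a glucocorticoid-regulated protein abundant in neutrophils, which limits their adhesion to endothelium through formyl peptide receptors. RNA levels only were measured here.

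The coding sequences of the members begin with the tails that set them apart from each other. The first 60 coding bases of 4 members are given for that reason, from GENCODE release M21 on GRCm38, 5′ to 3′, with the start codon in capitals.
Anxa1: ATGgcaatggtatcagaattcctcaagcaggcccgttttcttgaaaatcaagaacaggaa
Anxa2: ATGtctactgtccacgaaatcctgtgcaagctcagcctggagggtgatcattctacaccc
Anxa6: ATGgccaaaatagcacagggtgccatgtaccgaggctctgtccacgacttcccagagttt
Anxa11: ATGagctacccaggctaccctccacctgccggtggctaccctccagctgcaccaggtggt
The bases of *Anxa1* lie within exon 2, on the minus strand of chromosome 19 from 20384699 to 20384758, and encode part of the tail that proteases remove. Those of *Anxa2* begin in exon 2 (chromosome 9, plus strand, 69464477 to 69464524) and continue into exon 3, and this tail holds the binding site of S100a10. Those of *Anxa6* start in exon 2 at 55021537 to 55021554 on the minus strand of chromosome 11, and those of *Anxa11* in exon 2 at 25868872 to 25868926 on the plus strand of chromosome 14, both running on into exon 3. The longest complete coding sequences encoded 346 residues for *Anxa1*, 339 for *Anxa2*, 323 for *Anxa3* and 319 each for *Anxa4* and *Anxa5*. *Anxa7* and *Anxa11*, with long tails, reached 485 and 503 residues, and *Anxa6*, whose annexin core is duplicated, reached 673.

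Such sequences also decide how well reads can be assigned to a member. None of the 50-base stretches in the GENCODE transcripts of *Anxa1*, *Anxa5*, *Anxa6* and *Anxa7* occurred in a transcript of another gene on either strand. The shared portion was 1.35% for *Anxa2*, 1.79% for *Anxa3* and 2.08% for *Anxa4*. For *Anxa11* it was 16.2%, with the predicted genes *Gm2260* and *Gm2274* and the antisense gene *Anxa11os*.

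Total counts per library lay between 52186555 and 57262379. The libraries differed in composition between the groups, with haemoglobin genes at 14.6 to 15% of the counts in Ctrl and 1.55 to 1.61% in LIP. The 21 listed mature neutrophil genes were all higher in LIP (median log2 fold change 1.84), with summed levels of 16957 to 19245 CPM (counts scaled to a common library size after TMM scaling, which centres the bulk of genes on no change) in Ctrl and 61833 to 66667 CPM in LIP. The neutrophil markers were thus well detected in every library, but transcripts of other cells were present as well. Listed B cell genes were lower in 17 of 17 (summed CPM 25385 to 28787 in Ctrl, 5204 to 5340 in LIP), T cell genes in 15 of 15 tested (1029 to 1105 and 218 to 263) and erythroid genes in 10 of 10 tested (129776 to 138145 and 17588 to 18327). Platelet genes were higher in 11 of 11 (1084 to 1334 and 2753 to 3279) and monocyte and dendritic cell genes in 8 of 9 tested (577 to 696 and 1379 to 1494). NK cell genes were higher in 3 of 9, with ranges of 587 to 690 and 667 to 712, and eosinophil and basophil genes were split, with 1 higher and 1 lower of 6 tested (27.2 to 37.7 and 42.9 to 54.3). Of all genes tested, 26.5% were higher and 27.2% lower under TMM, so the NK cell, eosinophil and basophil counts were near or below the background. With library totals, 0 NK cell genes were higher and 1 was lower, where 18.4% and 39.7% of all genes were. On the scale of mature neutrophil genes, none of the platelet, monocyte or NK cell genes was higher, with median log2 fold changes of -0.58, -0.75 and -1.60. On that scale, 0.527% of all genes tested were higher and 88.1% lower, so that none being higher says little of these lists. The median over all genes tested was -1.91, below each of these medians. No listed marker found in the table was at 0 in all 6 libraries. Annexins are made by many of these cells, and the part of other cells in the annexin values was not tested. In pooled RNA, fewer cells of a type and less RNA per cell cannot be told apart.

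Annexin transcripts formed a larger fraction of the RNA in LIP than in Ctrl. The 8 members took 0.143%, 0.157% and 0.144% of the counts in the Ctrl libraries and 0.321%, 0.348% and 0.311% in the LIP libraries, and the groups did not overlap. On the TMM scale, 5 members rose in LIP, *Anxa1*, *Anxa2*, *Anxa11*, *Anxa3* and *Anxa5*, 1 fell, *Anxa6*, and *Anxa4* and *Anxa7* did not pass an adjusted p of 0.05 (edgeR's quasi-likelihood test, Benjamini-Hochberg adjustment over all genes tested). The scale matters for these directions. When the libraries were scaled on the summed counts of the 21 mature neutrophil genes in place of TMM, none rose and 6 fell, on a scale where 88.1% of all genes tested were lower and 0.527% higher, so that 6 of 8 is no more than the background. Under TMM, 53.6% of all genes tested were called, 26.5% higher and 27.2% lower, so that most genes of these libraries differed between the groups. The median log2 fold change was 0.78 over the 8 members and -0.09 over all genes tested. In CPM, 6 of the 8 members had no overlap between groups, against 63.4% of all genes tested. Of these, 5 were higher in LIP, as 30.3% of the genes tested were, and 1 was lower, as were 33.1%.

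**Figure D1:**
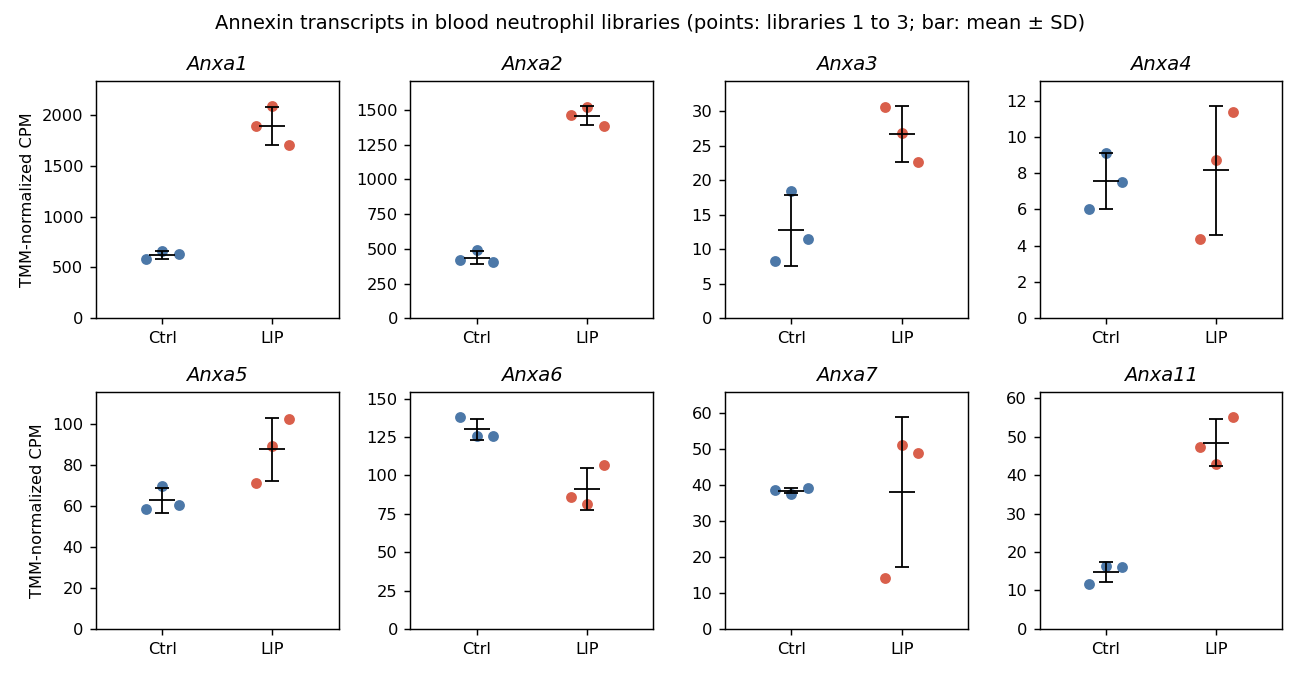
Each panel plots the TMM-normalized CPM of 1 annexin (vertical axis, from 0) in the 3 Ctrl and 3 LIP libraries, with points for libraries and bars for mean ± SD. For *Anxa1*, *Anxa2*, *Anxa3*, *Anxa5* and *Anxa11* the LIP points lie above every Ctrl point, for *Anxa6* they lie below, and for *Anxa7* 1 LIP library stands at 14.1 CPM beside 51.2 and 49.0.

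*Anxa1* (ENSMUSG00000024659, GRCm38 chromosome 19 from 20373428 to 20390944) was the most abundant annexin, ranking 124th by mean FPKM among all genes tested. Its level was 584, 658 and 632 CPM in Ctrl and 1891, 2085 and 1706 CPM in LIP. The lowest LIP library stood far above the highest Ctrl library. Its log2 fold change was 1.6 (standard error 0.0951, 95% interval 1.39 to 1.81, adjusted p = 5.4e-07 from edgeR), a 3.03-fold difference.

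*Anxa2* (ENSMUSG00000032231, chromosome 9 from 69453620 to 69491795), which forms a complex with S100a10 at the plasma membrane and binds plasminogen there, had the largest fold change, close to that of *Anxa11*. It was at 417, 491 and 402 CPM in Ctrl and at 1468, 1521 and 1388 CPM in LIP, with a narrow LIP group (coefficient of variation 4.61%). This was a log2 fold change of 1.74 (standard error 0.0981, 95% interval 1.52 to 1.96, adjusted p = 3.94e-07 from edgeR), higher than in 96.2% of the genes tested. The antisense gene *Gm16144* lies within it but had at most 80 reads in a library.

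*Anxa11* (ENSMUSG00000021866, chromosome 14 from 25842156 to 25886804), a partner of the calcium sensor Pdcd6 and of S100a6, was much rarer and rose by a like amount. Its values were 11.7, 16.3 and 16.2 CPM in Ctrl and 47.4, 42.9 and 55.1 CPM in LIP, well separated. Its log2 fold change was 1.72 (standard error 0.197, 95% interval 1.28 to 2.15, adjusted p = 4.31e-05 from edgeR). Its reads can be shared with 3 other loci. The antisense gene *Anxa11os* went from 3.24, 2.72 and 2.62 to 11, 8.37 and 14.3 CPM (log2 fold change 1.97, adjusted p = 0.000571 from edgeR), *Gm2260* had a log2 fold change of 1.66 (adjusted p = 0.00439) and *Gm2274* one of 1.51 (adjusted p = 0.0207). The use of strand in the counting is not given in the sources used here, so *Anxa11* and *Anxa11os* cannot be told apart where they overlap.

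*Anxa3* (ENSMUSG00000029484, chromosome 5 from 96793339 to 96845966), known in neutrophils for promoting the aggregation of granules, rose from low levels. It was at 8.27, 18.4 and 11.5 CPM in Ctrl and at 30.6, 26.9 and 22.6 CPM in LIP. The groups did not overlap, but the Ctrl libraries were widely spread (coefficient of variation 40.7%). The log2 fold change was 1.07 (standard error 0.292, 95% interval 0.42 to 1.71, adjusted p = 0.0107 from edgeR). With totals without haemoglobin genes it was 0.54 and not called (adjusted p = 0.126), and limma on log2(FPKM + 0.1) gave 0.81 (adjusted p = 0.0518).

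*Anxa5* (ENSMUSG00000027712, chromosome 3 from 36448923 to 36475894), the annexin used as a probe for phosphatidylserine on dying cells, showed the smallest rise. Its values were 58.2, 69.6 and 60.1 CPM in Ctrl and 71.2, 89.1 and 102 CPM in LIP, and the lowest LIP library was just above the highest Ctrl library. This gave a log2 fold change of 0.48 (standard error 0.154, 95% interval 0.14 to 0.83, adjusted p = 0.0224 from edgeR). In the deposited FPKM, the groups overlapped, at 34.3, 39.8 and 34.8 in Ctrl and 33.2, 41.9 and 48.1 in LIP. The call ended when libraries were scaled by their totals (0.17, adjusted p = 0.376) or by their totals without haemoglobin genes (-0.04, adjusted p = 0.817), and it passed in only 2 of the 6 fits that each left out 1 library, those without Ctrl replicate 2 or LIP replicate 1 (adjusted p from 0.00657 to 0.0995 over the 6).

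*Anxa6* (ENSMUSG00000018340, chromosome 11 from 54979108 to 55033445), which acts in endosome traffic and cholesterol transport, was the member that fell. It was at 138, 126 and 126 CPM in Ctrl and at 86.0, 81.1 and 107 CPM in LIP, and each LIP library lay below each Ctrl library. The log2 fold change was -0.51 (standard error 0.132, 95% interval -0.80 to -0.21, adjusted p = 0.00824 from edgeR), so the level in Ctrl was 1.42-fold that in LIP. Each other scaling shifts all genes by 1 amount, and *Anxa6* was at -0.83 with library totals, -1.04 with totals without haemoglobin genes and -2.32 with mature neutrophil genes. The listed B cell, T cell and erythroid genes, with median log2 fold changes of -2.47, -2.39 and -2.96, fell in the same libraries, as did 27.2% of all genes tested. Whether any of these cells has a part in the fall of *Anxa6* was not tested.

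*Anxa7* (ENSMUSG00000021814, chromosome 14 from 20455260 to 20480133), first described as a calcium-dependent aggregator of secretory granules, was not called, and 1 library stood apart. It was at 38.7, 37.6 and 39.1 CPM in Ctrl and at 14.1, 51.2 and 49.0 CPM in LIP. LIP library 1 held 707 reads of it, where the other five libraries held 2254 to 2609. Over all libraries, its log2 fold change was -0.02 (standard error 0.373, 95% interval -0.84 to 0.81, adjusted p = 0.974 from edgeR), and without LIP replicate 1 it was 0.38 (adjusted p = 0.0706). Among all genes tested, 4.84% had a wider range over the LIP libraries than the 1.86 log2 units of *Anxa7*, and among genes within a factor of 2 of its mean FPKM, 2.37% did.

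*Anxa4* (ENSMUSG00000029994, chromosome 6 from 86736840 to 86793584), a binder of secretory membranes best known from epithelia, was the rarest member and overlapped between the groups. Its values were 6.03, 9.12 and 7.52 CPM in Ctrl and 4.36, 8.74 and 11.4 CPM in LIP, with the lowest value again in LIP library 1. The difference was 0.11 on the log2 scale (standard error 0.378, 95% interval -0.73 to 0.95, adjusted p = 0.822 from edgeR). An interval of this width includes changes as large as that of *Anxa5*.

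Of the annexins outside the 8, *Anxa9* and *Anxa8* were listed in the table and fell under the filter. *Anxa9* was at 1.15, 0.918 and 1.18 CPM in Ctrl and 0.279, 2.63 and 0.360 CPM in LIP, and it overlaps *Mindy1* on the opposite strand, so part of its few reads is uncertain. *Anxa8* had 19 reads in 1 Ctrl library and none in the others. *Anxa10* and *Anxa13* were not analysed here.

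**Figure D2:**
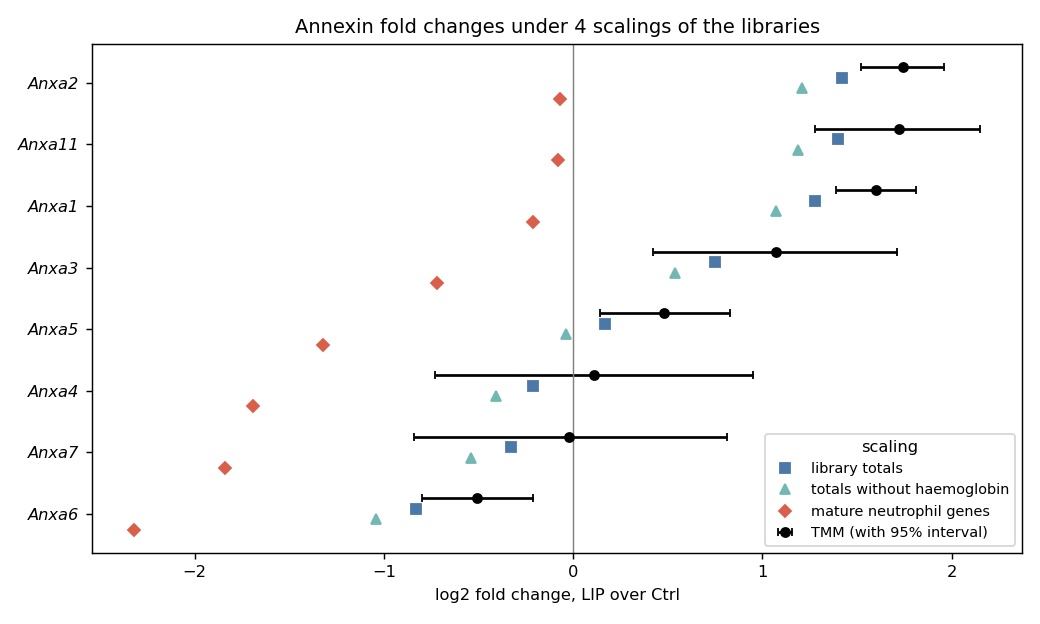
The log2 fold change of LIP over Ctrl (horizontal axis) is shown for each annexin under 4 scalings of the libraries, with the 95% interval for TMM only. *Anxa2*, *Anxa11* and *Anxa1* lie above 1 under TMM, library totals and totals without haemoglobin genes and at -0.07, -0.08 and -0.21 when scaled on mature neutrophil genes, while *Anxa6* is below 0 under all 4.

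The scaling on mature neutrophil genes gives each annexin relative to the summed counts of the 21 listed genes. These genes did not move by 1 amount, with log2 fold changes from 0.39 to 2.51 under TMM. On their own scale, 6 of the 21 were called higher and 5 lower, where 0.527% and 88.1% of all genes tested were. A small departure from 0 on this scale is thus also seen among the neutrophil genes. Under the neutrophil scaling, all genes tested had a median of -1.91 (log2 fold change), against -0.42 with library totals and -0.62 with totals without haemoglobin genes. Of all calls, 0.595% were higher under the neutrophil scaling, 31.6% under library totals and 22.2% without haemoglobin genes, beside 49.4% under TMM. *Anxa2* and *Anxa11* did not differ from the summed neutrophil genes beyond the test's threshold (-0.07, adjusted p = 0.443, and -0.08, adjusted p = 0.709, from edgeR), and *Anxa1* was slightly lower than this sum (-0.21, adjusted p = 0.0221). *Anxa3* fell further behind, at -0.72 (adjusted p = 0.0368). *Anxa5*, *Anxa4* and *Anxa7* were lower by this scale, at -1.32, -1.69 and -1.84 (adjusted p = 4.29e-05, 0.00246 and 0.00189), and *Anxa6* was lowest (adjusted p = 1.55e-06).

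Levels can be compared between genes only per length, for which the deposited FPKM were used. In Ctrl, *Anxa1* was highest at 221 ± 9.63 FPKM (SD, n = 3), followed by *Anxa2* at 121 ± 11.8, *Anxa6* at 45.8 ± 3.04 and *Anxa5* at 36.3 ± 3.02 (SD, n = 3 each). *Anxa7* had 6.61 ± 0.212, *Anxa11* 3.67 ± 0.603, *Anxa3* 3.57 ± 1.40 and *Anxa4* 1.66 ± 0.317 FPKM (SD, n = 3 each). Neighbours in this order did not overlap, except *Anxa11* and *Anxa3*. In LIP, *Anxa1* was at 542 ± 54.5 and *Anxa2* at 326 ± 15 FPKM, *Anxa5* at 41.1 ± 7.48 stood above *Anxa6* at 26.0 ± 4.01, and *Anxa11* at 9.77 ± 1.26 came next (SD, n = 3 each). *Anxa3*, at 6.09 ± 0.890, overlapped *Anxa7*, at 5.30 ± 2.91, and *Anxa7* overlapped *Anxa4*, at 1.46 ± 0.636 (SD, n = 3 each). *Anxa5* and *Anxa6* thus changed places between the groups. *Anxa11* stood below *Anxa7* in Ctrl and above it in LIP, where the mean of *Anxa7* was also below that of *Anxa3*. The LIP values of *Anxa7* were 1.94, 7.13 and 6.82 FPKM, so its low mean rests on LIP library 1.

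The share of each member in the summed FPKM of the 8 does not depend on how libraries are scaled. *Anxa1* made up 49.6%, 49.4% and 52.1% of the annexin FPKM in Ctrl and 57.2%, 58.2% and 54.2% in LIP. *Anxa2* made up 27.6%, 28.8% and 25.8% and then 34.6%, 33.2% and 34.4%. Both shares were higher in each LIP library than in each Ctrl library, and together they rose from between 77.2% and 78.2% to between 88.5% and 91.8%. The share of *Anxa6* went the other way, from 11.6%, 9.44% and 10.3% to 2.58%, 2.25% and 3.38%. That of *Anxa5* went from 8.08%, 8.57% and 8.11% to 3.53%, 4.08% and 5.32%. *Anxa5* thus took a smaller part of the annexin RNA in LIP although its CPM was higher. The shares of *Anxa7* (1.51% ± 0.119 for Ctrl against 0.551% ± 0.301 for LIP, SD, n = 3 each) and *Anxa4* (0.377% ± 0.0555 and 0.153% ± 0.0712, SD, n = 3 each) were also lower without overlap. The two-sided exact permutation test gave p = 0.1 for each of these 6 shares (0.133 after adjustment over the 8), which is the smallest p that 3 libraries against 3 allow, so no share could pass 0.05. The shares of *Anxa3* (exact permutation p = 0.5) and *Anxa11* (exact permutation p = 0.3) overlapped.

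**Figure D3:**
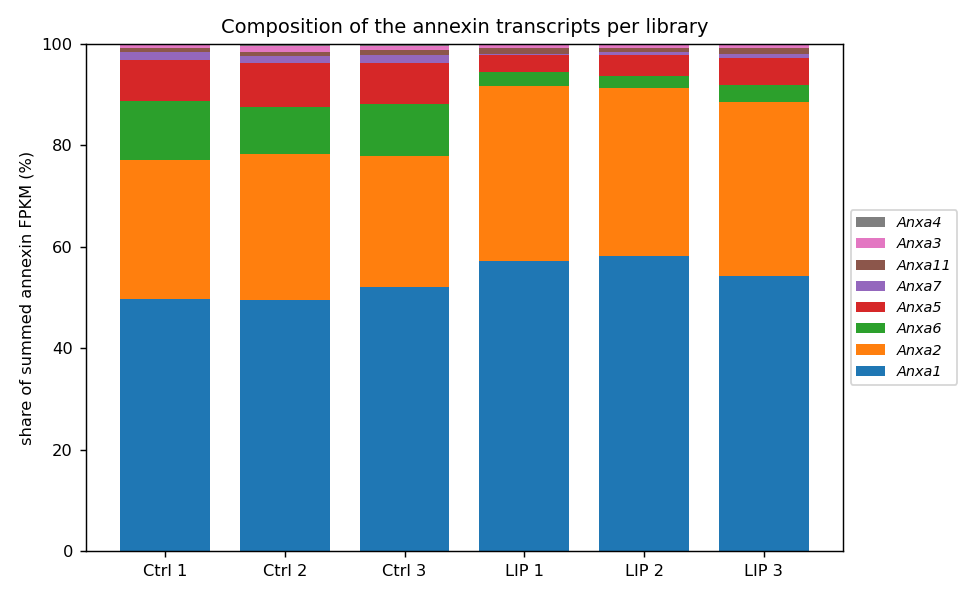
Stacked bars give the share of each of the 8 annexins in their summed FPKM (vertical axis, percent) for each library. *Anxa1* and *Anxa2* together fill 77.2 to 78.2% of the Ctrl bars and 88.5 to 91.8% of the LIP bars, and the *Anxa6* band is narrower in all 3 LIP libraries.

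Many annexins work with a partner, and 15 genes of binding partners and of membrane repair were listed, of which 14 were tested. Under TMM, 8 were higher in LIP (26.5% of all genes tested were), none was lower and 6 did not pass, with a median log2 fold change of 0.65. With totals without haemoglobin genes, 6 were higher and 4 lower, where 14% of all genes tested were higher and 49% lower. With the neutrophil scaling none was higher and 12 were lower, near the 88.1% of all genes. *S100a11*, the partner of Anxa1, rose from 1024, 1089 and 1135 to 3917, 3564 and 3649 CPM (log2 fold change 1.78, standard error 0.0760, adjusted p = 9.37e-08 from edgeR). *S100a6*, which binds Anxa2 and Anxa11, changed by 1.73 (adjusted p = 4.68e-07) and *S100a1* by 1.32 (adjusted p = 0.000253). *Vps4b*, an ATPase of the ESCRT machinery that works in membrane repair, changed by 0.95 (adjusted p = 0.000583), and *Pdcd6* by 0.59 (adjusted p = 0.0020). *S100a10* stood apart from its partner *Anxa2*. It was at 132, 178 and 140 CPM in Ctrl and 151, 154 and 170 CPM in LIP, with overlapping groups (log2 fold change 0.08, 95% interval -0.22 to 0.37, adjusted p = 0.644 from edgeR). This direction turned with library totals (-0.24, adjusted p = 0.132), with totals without haemoglobin genes, where it was called lower (-0.45, adjusted p = 0.0123), and with the neutrophil scaling (-1.73, adjusted p = 1.97e-06).

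Ratios within a library, which no scaling alters, showed the same for the pairs. The FPKM of *Anxa2* was 1.02, 0.897 and 0.931 times that of *S100a10* in Ctrl and 3.16, 3.20 and 2.66 times in LIP, a difference of 1.66 on the log2 scale. *Anxa1* to *S100a11*, at 0.1, 0.106 and 0.0977 in Ctrl and 0.0847, 0.103 and 0.0821 in LIP, overlapped (log2 difference -0.18), as did *Anxa11* to *S100a6* (log2 difference -0.01). *Anxa11* to *Pdcd6* was higher in each LIP library (log2 difference 1.14). *Anxa7* to *Sri*, the gene of its partner sorcin, was 0.206, 0.189 and 0.194 in Ctrl and 0.0430, 0.149 and 0.168 in LIP, lower in each LIP library, but the size rests on LIP library 1. Of the abundant members, *Anxa2* to *Anxa1* went from 0.557, 0.582 and 0.496 to 0.606, 0.569 and 0.635, and overlapped. The pairs that did not overlap had an exact permutation p of 0.1 (two-sided, 0.2 after adjustment over the 6 ratios), the smallest possible here. The pairs were chosen after the values had been seen.

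**Figure D4:**
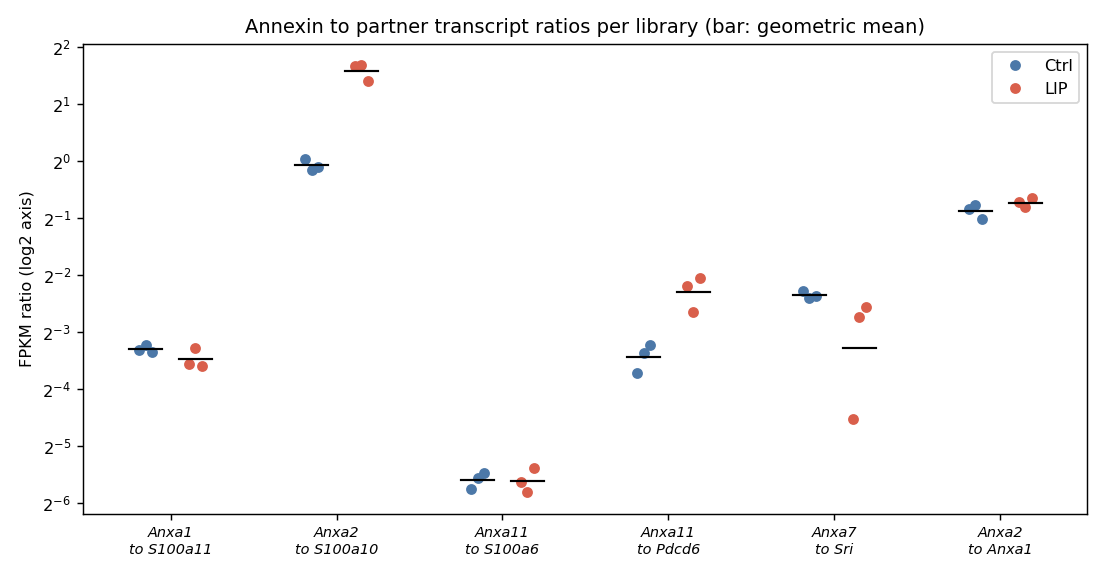
FPKM ratios (log2 vertical axis) of 5 annexin-partner pairs and of *Anxa2* to *Anxa1* are plotted per library, with bars for geometric means. The ratio of *Anxa2* to *S100a10* lies at 0.897 to 1.02 in Ctrl and 2.66 to 3.20 in LIP, whereas *Anxa1* to *S100a11* and *Anxa11* to *S100a6* overlap between the groups.

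Genes that act upstream or downstream of Anxa1 were described from lists. Of 12 receptors and cleavage enzymes listed, 8 were tested, and 4 of them were higher under TMM with none lower (median log2 fold change 0.58), beside 26.5% and 27.2% of all genes tested. The neutrophil scaling left 1 higher and 5 lower, where 88.1% of all genes were lower. The receptors *Fpr1* and *Fpr2*, through which Anxa1 and its N-terminal peptides act, had log2 fold changes of 2.10 (standard error 0.114, adjusted p = 3.27e-07 from edgeR) and 1.88 (standard error 0.131, adjusted p = 1.41e-06). *Fpr1* was the gene of this list that stayed higher relative to mature neutrophil genes, at 0.29 (adjusted p = 0.0275). The calpain genes *Capn1* and *Capn2* changed by 1.61 and 0.80 (adjusted p = 1.93e-05 and 0.00741). *Prtn3*, which encodes proteinase 3, a protease that cleaves the Anxa1 tail, was low and overlapped, with means of 2.18 CPM (SD 0.927, n = 3) for Ctrl and 2.15 CPM (SD 1.02, n = 3) for LIP, and was named after its values were seen.

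Some annexins, Anxa1 among them, were earlier known as lipocortins, inhibitors of phospholipase A2. Of 7 genes of this list, 4 were tested and 3 were higher under TMM, beside 26.5% of all genes tested. With the neutrophil scaling 3 were lower, as were 88.1% of all genes, so this count says nothing of the list. *Pla2g7*, which encodes the hydrolase of platelet-activating factor, rose from 404 ± 21.9 to 1410 ± 114 CPM (SD, n = 3 each, log2 fold change 1.80, adjusted p = 2.48e-07 from edgeR). The other calls were *Pla2g15* and *Pla2g4a*, the cytosolic enzyme that releases arachidonic acid, with 0.99 (adjusted p = 0.00812) and 0.96 (adjusted p = 0.0323), both outside the naming rule and chosen after their values were seen.

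Because *Anxa1* is a glucocorticoid-induced gene, 11 genes known for such induction or for the glucocorticoid response were examined. Under TMM, 9 were higher and 1 lower (median log2 fold change 0.74), beside 26.5% and 27.2% of all genes tested. With library totals 5 were higher and 1 lower, where 18.4% of all genes were higher and 39.7% lower. With the neutrophil scaling none was higher and 9 were lower, near the background of 88.1%. *Fkbp5*, a chaperone of the receptor, went from 89.4 ± 27.9 to 366 ± 10.9 CPM (SD, n = 3 each, log2 fold change 2.03, adjusted p = 1.47e-05 from edgeR). *Zfp36*, *Il1r2* and *Dusp1* changed by 1.93, 1.64 and 1.59, and *Il1r2* is also on the mature neutrophil list. *Tsc22d3*, which encodes the glucocorticoid-induced leucine zipper, moved the other way and fell under each of these scalings, from 1002, 1009 and 1024 to 722, 781 and 734 CPM (log2 fold change -0.44, standard error 0.0780, adjusted p = 0.00086 from edgeR). It is outside the naming rule and was chosen after its values were seen.

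Phosphatidylserine, the lipid that annexins bind, is moved to the outer leaflet by scramblases and back by flippases. Of 15 genes listed, 10 were tested, of which 6 were higher and 1 lower under TMM (median log2 fold change 0.71), beside 26.5% and 27.2% of all genes tested. With totals without haemoglobin genes, 3 were higher and 3 lower, where 14% and 49% of all genes were. The neutrophil scaling gave 1 higher and 7 lower, and 88.1% of all genes lower. *Plscr1*, an interferon-induced scramblase family member, changed by 1.80 (adjusted p = 1.71e-06 from edgeR), *Atp8b4* by 1.49 (adjusted p = 5.9e-06), *Tmem30a*, the flippase subunit, by 0.75 (adjusted p = 0.00192) and *Atp11b* by 0.66 (adjusted p = 0.00261). The gene that stayed higher under the neutrophil scaling was the flippase *Atp11a*, with 2.83 under TMM (adjusted p = 5.08e-06) and 1.01 under that scaling (adjusted p = 0.00716). *Mfge8*, a secreted bridge from phosphatidylserine to phagocytes, was the gene that was lower, at -0.98 (adjusted p = 0.0259). The last 2 genes are outside the naming rule and were chosen after their values were seen.

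**Figure D5:**
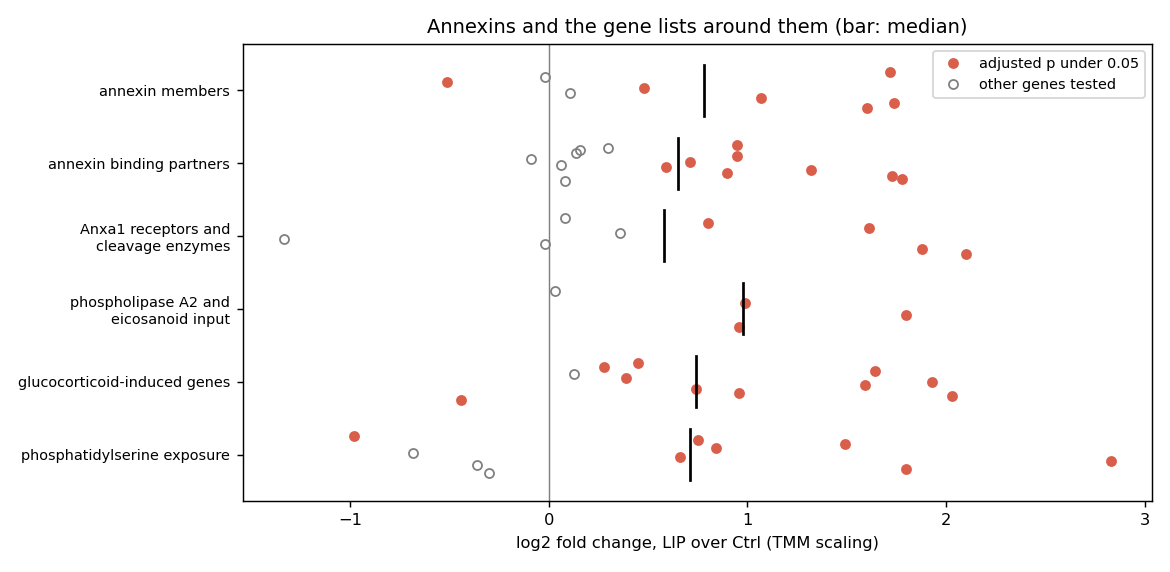
Log2 fold changes of LIP over Ctrl under TMM scaling (horizontal axis) are plotted for each tested gene of the annexins and 5 lists around them, filled where the adjusted p was under 0.05, with bars for medians. The medians lie between 0.58 and 0.98, and under scaling on mature neutrophil genes they lie between -1.24 and -0.84.

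The genes whose profile over the 6 libraries was closest to that of the member with the largest and the member with the lowest fold change were sought among the 3387 genes that averaged 10 FPKM or more, by the root mean square difference of centred log2 CPM. For *Anxa2*, they were *Casp4* (0.0376 log2 units), *Alox5ap* (0.0427) and *Jaml* (0.0451), with log2 fold changes of 1.80, 1.80 and 1.71. For *Anxa6*, they were *Socs1* (0.0474), *Eif3l* (0.0658) and *Tob2* (0.0726), with -0.55, -0.49 and -0.59. The selection itself fixes that these fold changes are like that of the member.

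The promoters of the 3 members that rose most are shown because these genes moved together by like amounts. The 100 bases before the RefSeq start site (GRCm38.p6) are printed 5′ to 3′, with capitals for matches, on either strand, to the motifs searched.
Anxa1: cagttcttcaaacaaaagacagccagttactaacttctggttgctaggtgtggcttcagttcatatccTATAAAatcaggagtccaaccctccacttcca
Anxa2: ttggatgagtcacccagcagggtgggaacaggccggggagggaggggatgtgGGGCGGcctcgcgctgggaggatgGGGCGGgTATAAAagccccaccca
Anxa11: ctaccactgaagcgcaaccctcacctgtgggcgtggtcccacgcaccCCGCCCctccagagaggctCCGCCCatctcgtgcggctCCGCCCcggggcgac
The windows are chr19:20390672-20390771 on the minus strand for *Anxa1*, chr9:69453583-69453682 on the plus strand for *Anxa2* and chr14:25842055-25842154 on the plus strand for *Anxa11*. By the gene coordinates given above, the window of *Anxa1* lies inside the gene and that of *Anxa2* lies partly inside it. The motifs were the TATA box (TATAAA), the GC box (GGGCGG), the CCAAT box (CCAAT), and the letters TTGCNNAA for C/EBP, GAGGAA for PU.1 and ACANNNTGT for the glucocorticoid receptor, none of which contains another. *Anxa1* and *Anxa2* each held TATAAA close to the start. Of 32851 RefSeq promoters of 300 bases, 13.6% hold it at any position on either strand, and the share with it close to the start was not counted. *Anxa2* and *Anxa11* held GGGCGG, found in 35.7% of all promoters, and *Anxa1* did not. Over 300 bases, GGGCGG was also found for *Anxa4* and *Anxa7*, which were not called under TMM. The windows had 43.0% G and C for *Anxa1*, 68.0% for *Anxa2* and 73.0% for *Anxa11*. In the 300-base promoters, TTGCNNAA was found for *Anxa1* and *Anxa4* (10.8% of all promoters), GAGGAA for *Anxa1* and *Anxa11* (28.3%) and ACANNNTGT for *Anxa4* (6.85%), and CCAAT for none of the members in the table (37.4%). The motifs in these windows differed between the 3 members, and the part of these promoters in the changes was not tested. The table held no entry for *Anxa3* and *Anxa6*.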

How the data were processed

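Sorted PB neutrophils of 3 Ctrl and 3 LIP pools were sequenced by paired-end Smart-seq2 on an Illumina NovaSeq, a method without molecular identifiers, so PCR copies are counted as reads. Per gene, the authors deposited raw counts and FPKM values normalized to gene length and library size. The submitters' processing notes name cutadapt 1.9, FastQC and GRCm38. The aligner, the counter and the use of strand are not given in the sources used here. For 50 names on several rows, the name refers to the row of higher mean FPKM, and the other rows stayed in the test under their identifiers.

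The 10440 genes averaging 1 FPKM or more were tested on their counts with edgeR 4.0.16 (R 4.3.3; quasi-likelihood test, TMM, no replicate block), with Benjamini-Hochberg adjustment over all of them and a threshold of 0.05. Standard errors were derived from the fold change and its F value. limma 3.58.1, on log2(FPKM + a pseudocount of 1 or 0.1), and DESeq2 1.42.0 were alternatives, beside 3 filters, 4 scalings, the block and leaving out each library. On counts simulated for this comparison with 200 of 10440 genes changed 2-fold, 47.5% were recovered, with 4.04% false calls among 99. The simulation changed as many genes up as down and kept all others equal between the groups. In the data 53.6% of the genes tested were called and the composition of the libraries differed. The simulated rates therefore do not carry over to the calls made here. Chi-square per gene between libraries of 1 group was 51.9 to 126, far above sampling noise. p-values measure the spread between pools.

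The members and lists were chosen with earlier results of these data known. Genes named are the members, the other annexins, up to 4 of each list with the largest change among called genes averaging 5 FPKM or more, *S100a10*, *S100a11*, *S100a6*, *Pdcd6*, *Fpr1* and *Fpr2*, and the 3 nearest profiles of the extreme members. *Sri*, *Mindy1* and genes sharing reads with a member were added after values were seen. Promoters are from RefSeq and coding sequences from GENCODE M21, and 6 members had a promoter entry.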

Additional observations from a re-analysis of the deposited data

How the results depend on the processing

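*Anxa1*, *Anxa2* and *Anxa11* kept their direction and call in 16 of 17 alternatives each, and *Anxa6* in 17 of 17. Scaling on mature neutrophil genes turned *Anxa1*, *Anxa2*, *Anxa3*, *Anxa5* and *Anxa11* to log2 fold changes of -0.21, -0.07, -0.72, -1.32 and -0.08 and *Anxa4* to -1.69, with 0 members higher and 6 lower. On that scale 0.527% of all genes tested were higher and 88.1% lower. The number higher was 5 under TMM, where 26.5% of all genes were higher. It was 3 with a mean FPKM of at least 5, which left out *Anxa3* and the uncalled *Anxa4* and ended the call of *Anxa5*. Under that filter 1768 of 5328 genes were higher. The number was also 3 with totals without haemoglobin genes, where *Anxa5* was at -0.04 and 14% of all genes were higher. In limma on log2(FPKM + 0.1) it was 3, beside 1865 of 10440 genes. Leaving out each library gave 4 to 5 higher and 1 lower, beside 2419 to 2615 and 2255 to 2770 of 10440 genes. *Anxa4*, not called under TMM, was at -0.21 with library totals, -0.41 without haemoglobin genes, -0.14 and -0.26 in limma with pseudocounts of 1 and 0.1, and between -0.21 and 0.41 with a library left out. *Anxa7* was at 0.02 without the FPKM filter, with median-of-ratios factors and in DESeq2, 0.03 with filterByExpr, and between -0.29 and 0.38 with a library left out. The cause of these shifts was not tested. *Anxa3* lost its call with totals without haemoglobin genes (0.54) and in limma on log2(FPKM + 0.1) (0.81). *Anxa5* lost it without the FPKM filter (0.52), with a mean FPKM of 5 (0.32), with library totals (0.17) and in limma with either pseudocount (0.16), and ranged from 0.36 to 0.61 with a library left out. *Anxa7* was called lower by the neutrophil scaling alone (-1.84). Same-numbered libraries did not deviate together (correlations -0.008, 0.044 and 0.021). With the replicate block 5 members were higher and 1 lower, with no call changed, beside 2724 and 2822 of 10440 genes. Of 56 alternatives on shares, 53 moved by less than 1 SD and none reversed; shares of summed CPM gave differences of -0.341, -2.30 and -1.87 percentage points for *Anxa4*, *Anxa5* and *Anxa7*. The lowest count of a member was 219 reads (*Anxa4* in LIP library 1). Reads without molecular identifiers do not give the number of molecules, and the part of depth in the spread was not tested.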
